A study of Mus musculus with 12 samples.

Results

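Claudins are small membrane proteins of the tight junction, the belt that closes the space between neighbouring epithelial cells. The 9 genes described here, Cldn1, Cldn2, Cldn3, Cldn4, Cldn7, Cldn8, Cldn12, Cldn15 and Cldn23, are those usually listed for the colon epithelium. They were found by symbol in the platform annotation, and all 9 of 9 were measured, each by 1 probe, among 22206 probes and 19505 named genes. The colon tissue came from male mice of 12 to 16 weeks, in 4 genotypes with 3 Affymetrix arrays each. The double knockout lacked both IL4i1 and LAO1, the LAO1 and IL4i1 knockouts each lacked the gene they are named for, and the wild type carried both. Both genes encode secreted L-amino acid oxidases, which release hydrogen peroxide and ammonia from amino acids. The study's title and design text concern diarrhoea and inflammation of the colon in the double knockout, although the labels call the sampled tissue healthy. The strain, how the alleles were made and which cells they affect are not given in the sources used here. Each array may hold RNA of a mouse of its own or of several, which the labels do not say, so a p-value covers the spread from array to array, some of which may be technical.

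The first extracellular loop of a claudin decides what its strands let through. Cldn1, Cldn3, Cldn4, Cldn7 and Cldn8 are usually counted as sealing claudins, and Cldn8 is known in the distal colon as part of the barrier that keeps absorbed sodium from leaking back. Cldn2 and Cldn15 line charge-selective pores for sodium and other small cations, and Cldn2 also lets water through. In the gut Cldn2 is known from crypts and from inflamed epithelium, where cytokines raise it, while Cldn8 is among the claudins often low in inflamed colon. Cldn12 and Cldn23 fit neither class as neatly.

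All values are log2 expression as deposited, and a difference of 1 on this scale is a doubling. The adjusted p of a gene comes from limma over all 22206 probes of the comparison, with 0.05 as the threshold. An unadjusted p under 0.05 is also counted, as a looser mark. Levels are not set against each other between genes, since probes differ in brightness. The arrays measured whole colon tissue, in which fewer cells of a type and less RNA per cell cannot be told apart. The 12 epithelial markers averaged 15.09 to 15.43 in double knockout, 14.75 to 15.28 in LAO1 knockout, 14.71 to 15.54 in IL4i1 knockout and 14.78 to 15.34 in wild type arrays, and Cdh1, Epcam, Krt8 and Vil1 were bright on all 12 arrays. The deleted genes gave no check of the labels. The Lao1 probe was dim in every genotype, at 3.23 to 3.56 in double knockout, 2.68 to 3.24 in LAO1 knockout, 2.98 to 3.33 in IL4i1 knockout and 2.64 to 3.24 in wild type arrays, and Il4i1 was not analysed here.

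The double knockout and IL4i1 knockout groups each held arrays that stood apart from the others. Double knockout replicate 1 read 10.79 for the cytokine Il1b, against 4.50 to 6.24 on the other 11 arrays, and 6.84 for Tnf, against 2.86 to 4.07. Double knockout replicate 2 carried pancreatic acinar transcripts, with Cpa1 at 18.12 against 4.21 to 5.48 elsewhere. IL4i1 knockout replicate 2 read highest of the 12 arrays for the epithelial keratin Krt18, at 15.64 against 12.81 to 14.24, and for the mean of the 10 smooth muscle markers, at 13.59 against 11.95 to 13.18.

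Cldn8 was the claudin that separated the double knockout from the other 3 genotypes. It read 3.65, 4.22 and 4.38 in double knockout arrays, 6.16, 5.43 and 5.51 in LAO1 knockout arrays, 6.62, 6.41 and 8.47 in IL4i1 knockout arrays, and 7.42, 6.04 and 6.03 in wild type arrays. Every double knockout array lay below all 9 other arrays, which held for 0.892% of all probes. The other genotypes overlapped in part: LAO1 knockout replicate 1 reached above 2 of the wild type arrays, and the highest value was IL4i1 knockout replicate 3.

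Against the IL4i1 knockout, Cldn8 fell by 3.08 on the log2 scale in the double knockout (SE 0.50, 95% confidence interval -4.16 to -2.0), with an adjusted p of 0.0149. The double knockout values lay in the dim part of their arrays, where 23.4% to 35.0% of the probes read lower, against 49.8% to 78.8% on the other 9 arrays. A dim value carries no exact level, so no fold is given. This was the single call among the claudins in that comparison, where 0.477% of all probes passed the adjusted test, 86 higher and 20 lower in the double knockout. Without IL4i1 knockout replicate 3, the highest array, the difference was -2.43 with an adjusted p of 0.0287. It missed the threshold without double knockout replicate 1, at a difference of -2.87 and an adjusted p of 0.0857, and with that array and IL4i1 knockout replicate 2 both left out, at -3.24 and 0.0753. It also missed it when the fit held only the 6 compared arrays, at an adjusted p of 0.0941. Over all 20 alternatives the adjusted p ranged from 0.0053 to 0.0941, with 17 of them under the threshold.

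Against wild type, Cldn8 averaged 4.08 ± 0.38 in double knockout and 6.50 ± 0.80 in wild type arrays (SD, n = 3 each). The difference was -2.41 (SE 0.50, 95% confidence interval -3.49 to -1.33) with no overlap between the groups, yet its adjusted p was 0.242, the 29th smallest p of the comparison. Across the 20 alternatives the difference stayed between -2.65 and -1.95, and its adjusted p between 0.0668 and 0.752. Against the LAO1 knockout, which averaged 5.70 ± 0.40 (SD, n = 3), the difference was -1.62 (SE 0.50, adjusted p 0.483), again with no overlap.

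Neither single knockout differed from wild type in Cldn8 by a margin that the test could tell from the spread. The LAO1 knockout was 0.80 below wild type, a difference of -0.80 with an interval of -1.88 to 0.28, and the difference was -0.33 without wild type replicate 1. The IL4i1 knockout, at 7.17 ± 1.13 (SD, n = 3), was higher by 0.67, with an interval of -0.41 to 1.75. That difference was 0.02 without IL4i1 knockout replicate 3 and 1.13 without wild type replicate 1. The interaction, the wild type plus the double knockout minus the 2 single knockouts, came to -2.29 (SE 0.71, adjusted p 0.417). The test for any difference among the 4 genotypes gave Cldn8 an adjusted p of 0.0706.

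The Cldn8 difference was about as large relative to epithelial transcripts. With each array centred on its epithelial markers, the double knockout was lower by a difference of -2.57 against wild type and -3.15 against the IL4i1 knockout. These markers include Lgals4, which itself averaged 18.78 in double knockout, 18.03 in IL4i1 knockout and 17.36 in wild type arrays. Along the colon, Hoxb13 is a gene of the distal end, and it was uneven within groups, at 4.09, 4.28 and 7.06 in double knockout arrays, 6.53, 3.10 and 5.46 in LAO1 knockout arrays, 5.98, 4.13 and 7.39 in IL4i1 knockout arrays and 6.20, 2.71 and 3.82 in wild type arrays. In all 4 genotypes the array with the highest Cldn8 also had the highest Hoxb13. These were double knockout replicate 3, with Cldn8 at 4.38 and Hoxb13 at 7.06, LAO1 knockout replicate 1 at 6.16 and 6.53, IL4i1 knockout replicate 3 at 8.47 and 7.39, and wild type replicate 1 at 7.42 and 6.20. Hoxb13 was picked after its values were seen, and no other measured posterior Hox gene showed this match in all 4 genotypes. Hoxa13 was highest in double knockout replicate 2, LAO1 knockout replicate 3 and wild type replicate 2. Hoxd13 missed the match only in the LAO1 knockout, where replicate 3 was highest at 3.32. The part of the sampled colon segment in the Cldn8 difference was not tested.

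**Figure D1:**
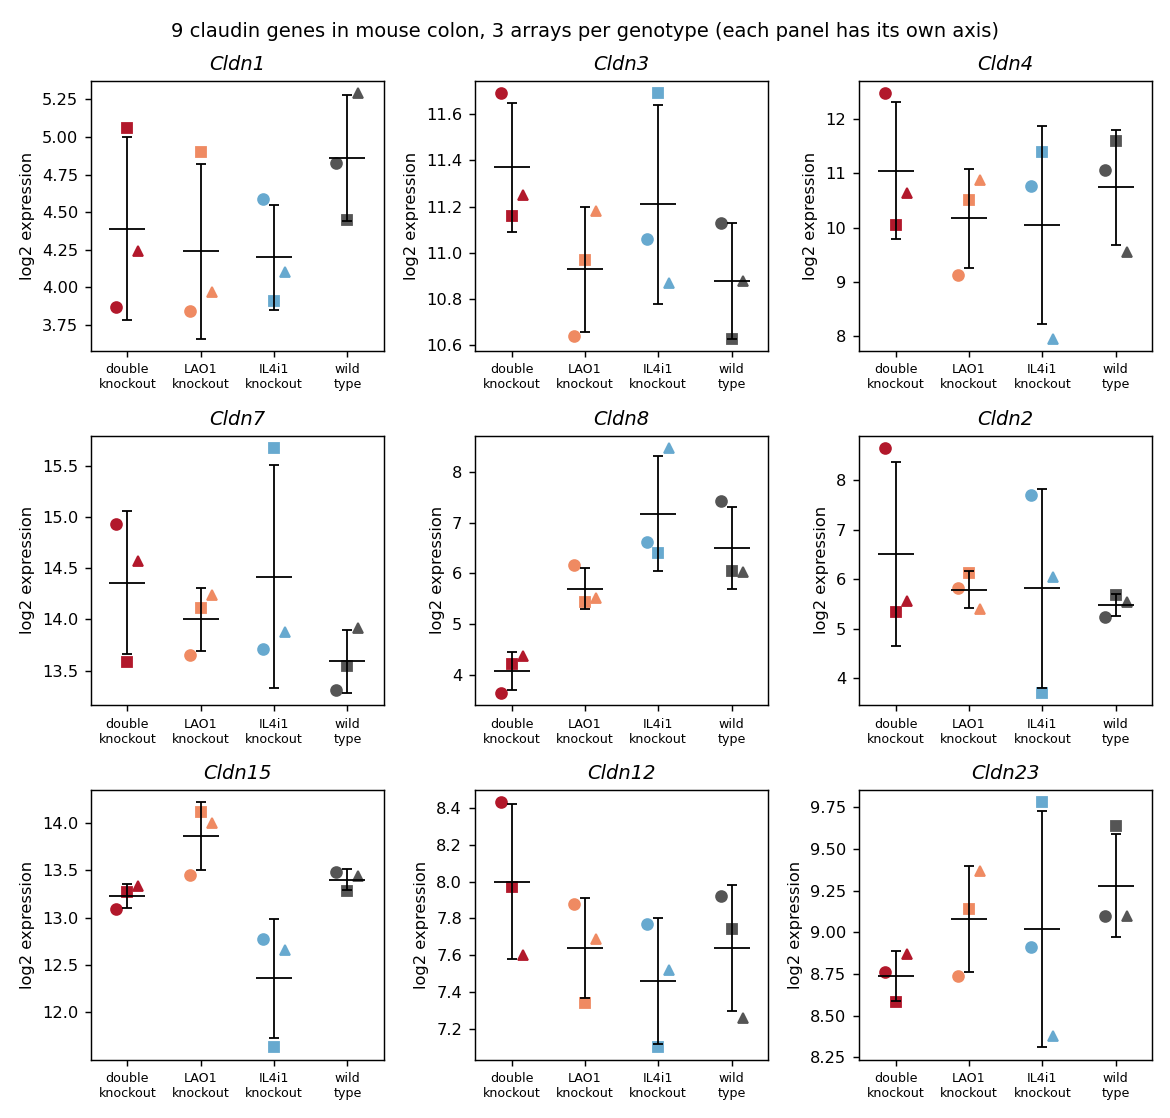
Log2 expression of the 9 claudins, 1 panel per gene with an axis of its own, in double knockout, LAO1 knockout, IL4i1 knockout and wild type colon. Points are single arrays (circle, square and triangle for replicates 1, 2 and 3), the long bar is the group mean and the error bar is 1 SD over 3 arrays. In the Cldn8 panel the double knockout arrays lie at 3.65 to 4.38, below all others, and in the Cldn15 panel the IL4i1 knockout arrays lie at 11.63 to 12.78, below all others.

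The other sealing claudins did not share the Cldn8 pattern. Cldn3, present along the whole colon epithelium, read 11.69, 11.16 and 11.25 in double knockout arrays, 10.64, 10.97 and 11.18 in LAO1 knockout arrays, 11.06, 11.69 and 10.87 in IL4i1 knockout arrays and 11.13, 10.63 and 10.88 in wild type arrays. All double knockout arrays were above the wild type arrays, by a mean of 0.49 (SE 0.26, adjusted p 0.728), or 0.32 without double knockout replicate 1. Cldn7, which also sits on the lateral membrane of colonocytes where it binds Epcam, read 14.93, 13.58 and 14.57 in double knockout arrays, 13.65, 14.11 and 14.24 in LAO1 knockout arrays, 13.71, 15.68 and 13.88 in IL4i1 knockout arrays and 13.31, 13.54 and 13.92 in wild type arrays. The groups overlapped, and the highest value was that of IL4i1 knockout replicate 2, the array with the highest Krt18 and Epcam as well. In the double knockout the difference from wild type was 0.77 (SE 0.46, adjusted p 0.758), and it was 0.48 without double knockout replicate 1 and 1.16 without replicate 2. In the IL4i1 knockout it was 0.83 (adjusted p 0.684), and 0.20 without IL4i1 knockout replicate 2.

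Cldn4, a sealing claudin of surface cells, varied more within genotypes than between them. It read 12.48, 10.04 and 10.64 in double knockout arrays, 9.13, 10.51 and 10.87 in LAO1 knockout arrays, 10.77, 11.39 and 7.95 in IL4i1 knockout arrays and 11.07, 11.59 and 9.55 in wild type arrays. The double knockout differed from wild type by 0.32, with an interval of -1.52 to 2.15 that allows a change of more than a doubling either way. The sign turned to -0.40 without double knockout replicate 1, the array with the high Il1b. Cldn1, best known from skin and low in normal colonocytes, was dim on all arrays. It read 3.87, 5.06 and 4.24 in double knockout arrays, 3.84, 4.90 and 3.97 in LAO1 knockout arrays, 4.59, 3.91 and 4.10 in IL4i1 knockout arrays and 4.83, 4.45 and 5.29 in wild type arrays. The groups overlapped, and the double knockout was at -0.47 relative to wild type (SE 0.36, adjusted p 0.822), or -0.21 without double knockout replicate 1 and -0.80 without replicate 2.

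For the pore-forming pair the 250 bases before the start of transcription are shown, since one of the pair separated a genotype and the other varied between single arrays, and their upstream windows differ in the letters they hold. They are from RefSeq on GRCm38.p6, 5′ to 3′ on the strand of the gene. Capitals mark matches to 7 short motifs, each looked for on both strands. They were the GC box (GGGCGG), the TATA box (TATAAA), the letters that CDX factors of the gut can bind (TTTATG or else TTTATT), a half-site of steroid receptors (AGAACA), the E-box of USF and MYC (CACGTG), the STAT letters (TTCNNNGAA) and the GATA letters (AGATAA). The window of Cldn15 is chr5:136967619-136967868 on the plus strand, and that of Cldn2 is chrX:139800558-139800807 on the plus strand.
Cldn15: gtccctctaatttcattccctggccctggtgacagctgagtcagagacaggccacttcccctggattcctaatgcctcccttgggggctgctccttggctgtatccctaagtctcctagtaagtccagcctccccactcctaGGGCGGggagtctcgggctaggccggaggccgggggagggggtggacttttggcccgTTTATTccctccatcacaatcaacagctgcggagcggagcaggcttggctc
Cldn2: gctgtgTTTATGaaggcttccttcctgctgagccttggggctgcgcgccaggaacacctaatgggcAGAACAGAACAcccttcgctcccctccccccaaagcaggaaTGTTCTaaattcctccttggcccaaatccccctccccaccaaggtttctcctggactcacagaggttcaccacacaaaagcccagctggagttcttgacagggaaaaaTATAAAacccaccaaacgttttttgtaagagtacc

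The Cldn15 window held GGGCGG at -108 to -103 and TTTATT at -51 to -46, counted back from the start, and 60.8% of its bases were G or C. That of Cldn2 held TATAAA at -35 to -30, TTTATG at -244 to -239 and 3 AGAACA matches, of which those at -184 to -179 and -179 to -174 overlap in a base and that at -143 to -138 is on the other strand; 52.0% of its bases were G or C. Of 32851 windows of the same length, 25.5% held the CDX letters, 12.4% TATAAA, 32.7% GGGCGG and 16.1% AGAACA, so such letters are common. A match describes the letters only. RefSeq windows were found for 7 of the 9 claudins, without Cldn8 and Cldn23.

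Cldn15, the main sodium pore claudin of the gut, was lowest in the IL4i1 knockout. It read 12.78, 11.63 and 12.66 in IL4i1 knockout arrays and 13.48, 13.28 and 13.44 in wild type arrays. The double knockout arrays read 13.09, 13.27 and 13.34, and the LAO1 knockout arrays 13.45, 14.12 and 14.00. Every IL4i1 knockout array lay below all 9 others, which held for 0.968% of all probes. The lowest of them was replicate 2, which stood apart in its keratin and smooth muscle values.

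The IL4i1 knockout averaged 12.36 ± 0.63 and wild type 13.40 ± 0.11 (SD, n = 3 each), a difference of -1.04 (SE 0.28) that did not pass the adjusted test (adjusted p 0.520). The difference was -0.68 without IL4i1 knockout replicate 2, still with no overlap of the groups. Across the 20 alternatives it ranged from -1.26 to -0.68, and none gave an adjusted p under the threshold. The double knockout, which also lacks IL4i1, stood 0.88 above the IL4i1 knockout with no overlap (SE 0.28, adjusted p 0.275), or 0.51 above it without IL4i1 knockout replicate 2. Its arrays overlapped the wild type arrays, with a difference of -0.17 (adjusted p 0.935). The double knockout lay below the LAO1 knockout, at 13.23 ± 0.13 against 13.86 ± 0.36 (SD, n = 3 each), a difference of -0.62 (adjusted p 0.692). The interaction for Cldn15 was 0.42 (SE 0.40, adjusted p 0.894), and 0.06 without IL4i1 knockout replicate 2.

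Cldn2, the cation and water pore of crypts, had 3 values far from the rest. It read 8.66, 5.34 and 5.56 in double knockout arrays, 5.83, 6.13 and 5.4 in LAO1 knockout arrays, 7.70, 3.70 and 6.05 in IL4i1 knockout arrays and 5.23, 5.68 and 5.54 in wild type arrays. The highest was double knockout replicate 1, which also had the highest Il1b, Tnf and Il6. The proteins encoded by Tnf and Il6 are known to raise Cldn2 in cultured intestinal epithelium. IL4i1 knockout replicates 1 and 2 were next highest and lowest. Replicate 1 of the IL4i1 knockout read 5.19 for Il1b, 3.90 for Tnf and 2.98 for Il6, within the range of the other arrays. The double knockout differed from wild type by 1.04 (SE 0.89, interval -0.89 to 2.96, adjusted p 0.851), and by -0.03 without replicate 1. Whether the cytokine transcripts of double knockout replicate 1 bear on its Cldn2 value was not tested.

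Cldn12, a claudin tied to calcium passage in mouse gut, read 8.43, 7.97 and 7.60 in double knockout arrays, 7.88, 7.34 and 7.69 in LAO1 knockout arrays, 7.77, 7.10 and 7.52 in IL4i1 knockout arrays and 7.92, 7.74 and 7.26 in wild type arrays. The groups overlapped, with a double knockout difference of 0.36 from wild type (SE 0.27, adjusted p 0.820). It was 0.14 without double knockout replicate 1, the highest array, and 0.17 without wild type replicate 3. Cldn23, a claudin of the differentiated colon surface, read 8.76, 8.58 and 8.87 in double knockout arrays, 8.74, 9.14 and 9.37 in LAO1 knockout arrays, 8.91, 9.78 and 8.38 in IL4i1 knockout arrays and 9.10, 9.64 and 9.10 in wild type arrays. All double knockout arrays were below the wild type arrays, by a difference of -0.54 (SE 0.31, adjusted p 0.745).

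Read against all probes, the claudins gave few calls. In the double knockout against wild type, 0 of the 9 passed the adjusted test, as did 0.0225% of all probes, and 1 (Cldn8) had an unadjusted p under 0.05, against 7.44% of all probes. In that comparison 3 claudins had groups with no overlap, Cldn3 above and Cldn8 and Cldn23 below, against 11.6% of all probes. In the LAO1 knockout against wild type no claudin passed either mark, where 0.0045% of probes passed the adjusted and 3.02% the unadjusted one, and no claudin separated the groups, against 8.53% of probes. In the IL4i1 knockout against wild type 0 passed the adjusted test (0.0135% of probes), 1, Cldn15, had an unadjusted p under 0.05 (7.58% of probes), and the same gene separated the groups (11.1% of probes).

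The double knockout against the LAO1 knockout gave 0 adjusted calls (0.14% of probes) and 2 unadjusted ones, Cldn8 and Cldn15 (7.15% of probes), the same 2 that separated the groups (12.7% of probes). Against the IL4i1 knockout it gave the Cldn8 call and 2 unadjusted ones, Cldn8 lower and Cldn15 higher (9.83% of probes), and both separated the groups (12.7% of probes). For the interaction 0 claudins passed the adjusted test (0.23% of probes) and 1, Cldn8, the unadjusted mark (7.12% of probes). For any difference among the genotypes 0 passed the adjusted test (0.207% of probes) and 2, Cldn8 and Cldn15, the unadjusted mark (7.48% of probes).

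The double knockout comparisons share their double knockout arrays, and those with wild type share the wild type arrays, so these counts are not independent of each other. The differences of the other 7 claudins lay between -0.54 and 1.04 in the double knockout, between -0.62 and 0.41 in the LAO1 knockout, and between -0.70 and 0.83 in IL4i1 knockout arrays, all relative to wild type. The median of all 9 was 0.32 in the double knockout, with 5 above and 4 below wild type, beside a median of 0.00 over all probes.

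**Figure D2:**
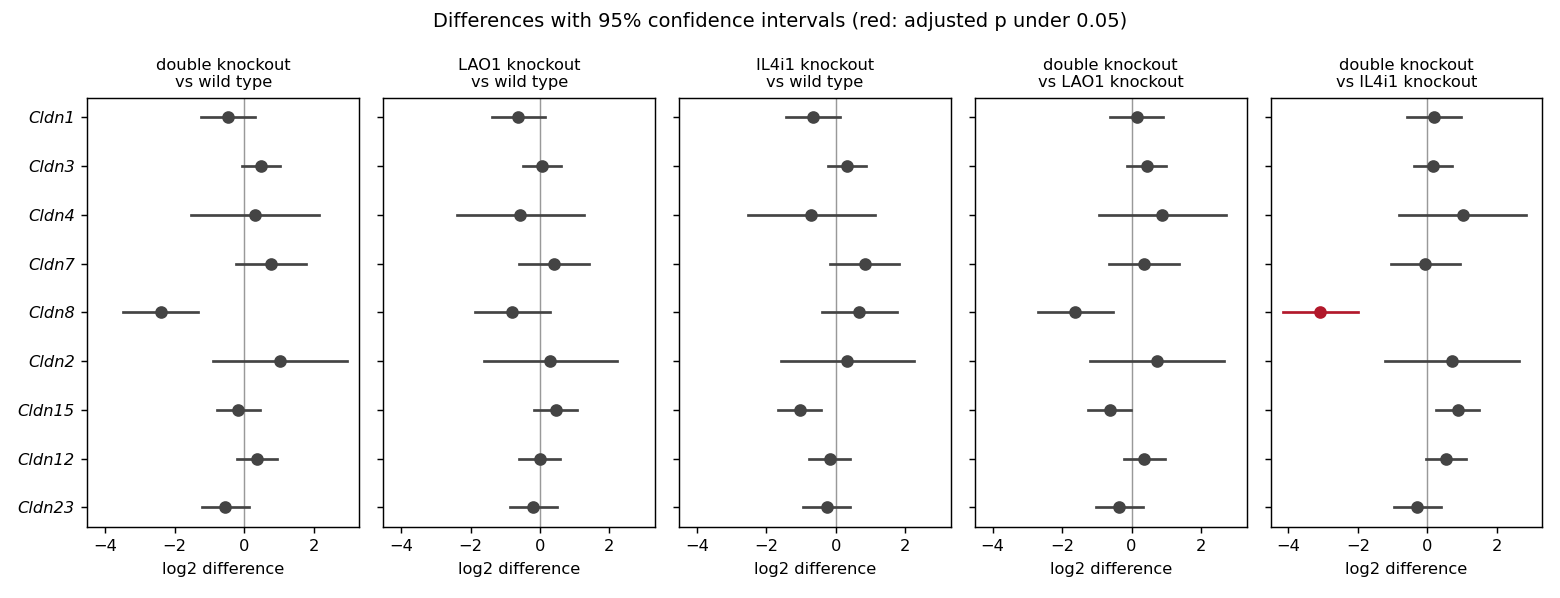
Log2 differences of the 9 claudins in 5 comparisons, the first-named genotype less the second, with points for the estimate and lines for the 95% confidence interval from the limma fit. The 1 red point is Cldn8, double knockout against IL4i1 knockout, at -3.08, the claudin difference with an adjusted p under 0.05; the widest intervals belong to Cldn2 and Cldn4.

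Seen array by array, 2 arrays held many of the most extreme claudin values. Double knockout replicate 1 was the highest of all 12 arrays for Cldn4, at 12.48 against 7.95 to 11.59, for Cldn2 and for Cldn12. The same array was the lowest of all for Cldn8, at 3.65 against 4.22 to 8.47. IL4i1 knockout replicate 2 held the highest Cldn7 and Cldn23 and the lowest Cldn2, Cldn12 and Cldn15. The 36 pairs of claudins were compared over the 12 arrays. The closest pair was Cldn3 and Cldn7, with Pearson r 0.79 and Spearman rho 0.67 (permutation p 0.00232 and 0.0208, or 0.0835 and 0.747 after adjustment over the 36 pairs). The r was 0.40 without IL4i1 knockout replicate 2 and double knockout replicate 1, so that relation rests in part on these 2 arrays. None of the 36 pairs passed after adjustment, and Cldn8 and Cldn15, each apart in 1 genotype, did so in different ones.

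**Figure D3:**
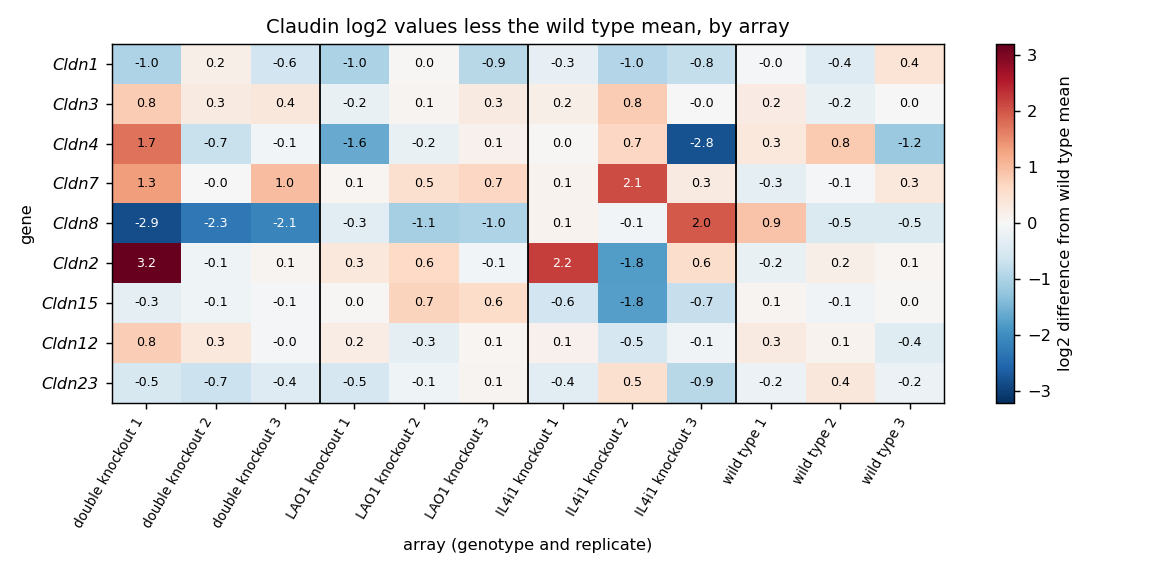
Log2 value of each claudin (rows) on each of the 12 arrays (columns, double knockout first and wild type last) less the mean of its 3 wild type arrays, with the difference printed in each cell and lines between genotypes. The Cldn8 row is blue in all 3 double knockout arrays and the Cldn15 row in all 3 IL4i1 knockout arrays, while Cldn2, Cldn4 and Cldn7 owe their strong colours to single arrays.

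Beyond the 9, the claudin family and its partners showed no adjusted call in the double knockout against wild type. Of 29 other family members listed, 26 were measured, with a median difference of -0.03. An unadjusted p under 0.05, which 7.44% of all probes had, was seen in 2. These 2 were Cldn5, the endothelial claudin, at -0.55 (adjusted p 0.580), and Tmem114 at -0.59 (adjusted p 0.562). Both were dim, Cldn5 at 2.13 to 3.01 and Tmem114 at 3.26 to 4.15 over the 12 arrays, so these differences have no exact size. All 8 endothelial markers were also below wild type, with a median of -0.37 and 0 calls at either mark, and the part of endothelial content in Cldn5 was not tested. Cldn17, an anion pore claudin next to Cldn8 on chromosome 16, was dim at 2.66, 2.77 and 3.19 in double knockout arrays, 2.75, 2.5 and 3.02 in LAO1 knockout arrays, 2.75, 3.43 and 2.93 in IL4i1 knockout arrays and 2.74, 3.18 and 2.93 in wild type arrays. It did not show the Cldn8 order. Cldn3 and Cldn4 are neighbours on chromosome 5, and their double knockout differences from wild type were 0.49 and 0.32.

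Of 33 tight junction partners, 31 were measured. In the double knockout against wild type none passed the adjusted test and 3 had an unadjusted p under 0.05, all lower, where 7.44% of all probes had such a p. The median was -0.15, with 8 above and 23 below wild type, against 0.00 for all probes. Ocln, which encodes occludin, the first tight junction membrane protein described, read 9.46, 9.39 and 9.66 in double knockout arrays, 9.89, 10.29 and 10.40 in LAO1 knockout arrays, 10.37, 9.89 and 9.70 in IL4i1 knockout arrays and 10.51, 10.82 and 9.88 in wild type arrays. Every double knockout array was below all others, which held for 0.892% of all probes, though 9.66 in replicate 3 lay close to 9.70 in IL4i1 knockout replicate 3. The Ocln difference from wild type was -0.90 (SE 0.26, adjusted p 0.448). The other 2 with an unadjusted p under 0.05 were Cxadr at -0.86 (adjusted p 0.503) and Jam2 at -0.71 (adjusted p 0.580), both adhesion proteins of the junction. The 8 endothelial markers were all below wild type as well, with a median of -0.37. The part of endothelial content in the Jam2 value was not tested.

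Against the IL4i1 knockout none of the 31 partners passed, and 1 was higher and 4 lower at an unadjusted p under 0.05, where 9.83% of all probes had such a p. Those with the smallest p were Patj at -0.65 (adjusted p 0.262), Pard6b at 0.85 (adjusted p 0.278) and Pard3 at -0.53 (adjusted p 0.295), all known from cell polarity and not of 1 direction. Tjp1, the ZO-1 scaffold to which claudins bind, read 11.09, 11.96 and 11.71 in double knockout arrays and 12.00, 12.67 and 12.13 in IL4i1 knockout arrays, a difference of -0.68 with an adjusted p of 0.431.

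Among regulators of claudins and of the junction's tension, 30 of 36 were measured, and 0 passed in the double knockout against wild type. An unadjusted p under 0.05, which 7.44% of all probes had, was seen in 2. These were Mylk, the myosin light chain kinase, at -1.11 (adjusted p 0.493), and Zeb1, a repressor of epithelial genes, at -0.82 (adjusted p 0.538). Mylk is also a smooth muscle gene, and all 10 smooth muscle markers were below wild type, with a median of -0.42 and marker means of 12.09 to 12.68 in double knockout and 12.45 to 12.95 in wild type arrays. The part of muscle content in the Mylk value was not tested.

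Of the 19 cytokines and receptors known to change claudin expression, 0 passed the adjusted test in the double knockout against wild type. An unadjusted p under 0.05, which 7.44% of all probes had, was seen in 3, all higher. They were Ifng at 0.91 (adjusted p 0.504), Il1b at 2.36 (adjusted p 0.603) and Il22 at 0.61 (adjusted p 0.632). Il22 was dim at 2.28 to 3.54 over the 12 arrays and Ifng at 3.40 to 5.51, so their differences have no exact size. The Il1b values were 10.79, 5.71 and 6.24 in double knockout and 5.49, 4.50 and 5.66 in wild type arrays, so the size of its difference rests on replicate 1. The part of these cytokines in the claudin values was not tested.

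Genes of aldosterone-regulated sodium uptake, the route that the Cldn8 seal serves in the distal colon, were listed as well. Of 13, 12 were measured, and in the double knockout against wild type 0 passed the adjusted test, with 2 above and 10 below wild type and a median of -0.24. Nedd4l, which encodes a ubiquitin ligase that removes the sodium channel, was at -1.01 (adjusted p 0.406), and Nr3c2, the mineralocorticoid receptor, at -0.72 (adjusted p 0.535). Nr3c2 read 13.71, 14.31 and 13.90 in double knockout arrays, 14.59, 15.09 and 14.37 in LAO1 knockout arrays, 15.05, 14.63 and 15.13 in IL4i1 knockout arrays and 14.79, 14.77 and 14.53 in wild type arrays. The double knockout arrays were below all others, which held for 0.892% of all probes. The highest of them, 14.31, lay close to 14.37 in LAO1 knockout replicate 3. Sgk1, a kinase induced by aldosterone, differed by -1.0 (adjusted p 0.677) but had another pattern. It read 8.25, 8.02 and 10.39 in double knockout arrays, 8.92, 8.39 and 8.81 in LAO1 knockout arrays, 8.78, 8.64 and 8.4 in IL4i1 knockout arrays and 10.14, 9.93 and 9.58 in wild type arrays. Both single knockouts lay below all wild type arrays, and double knockout replicate 3 was the highest of the 12.

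Against the IL4i1 knockout 4 of the 12 had an unadjusted p under 0.05, all lower in the double knockout, against 9.83% of all probes, and none passed. Zbtb16, a transcription factor induced by corticosteroids, came closest, at 7.04, 7.41 and 8.18 in double knockout arrays and 9.02, 9.90 and 9.68 in IL4i1 knockout arrays, a difference of -1.99 with an adjusted p of 0.0507. All 10 smooth muscle markers were lower in this comparison too, with a median of -0.83. The part of muscle content in the Zbtb16 value was not tested. Nr3c2 was at -0.96 (adjusted p 0.137), Nedd4l at -1.09 (adjusted p 0.152) and Hsd11b2, the enzyme that shields the receptor from glucocorticoids, at -1.29 (adjusted p 0.271). The sodium channel gene Scnn1b read 5.0, 5.05 and 4.26 in double knockout arrays and 6.05, 5.39 and 4.75 in IL4i1 knockout arrays, with overlap. Scnn1a, another gene of the channel, averaged 13.22 in double knockout and 13.29 in IL4i1 knockout arrays. A further one, Scnn1g, was dim at 2.39 to 3.46 over the 12 arrays.

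**Figure D4:**
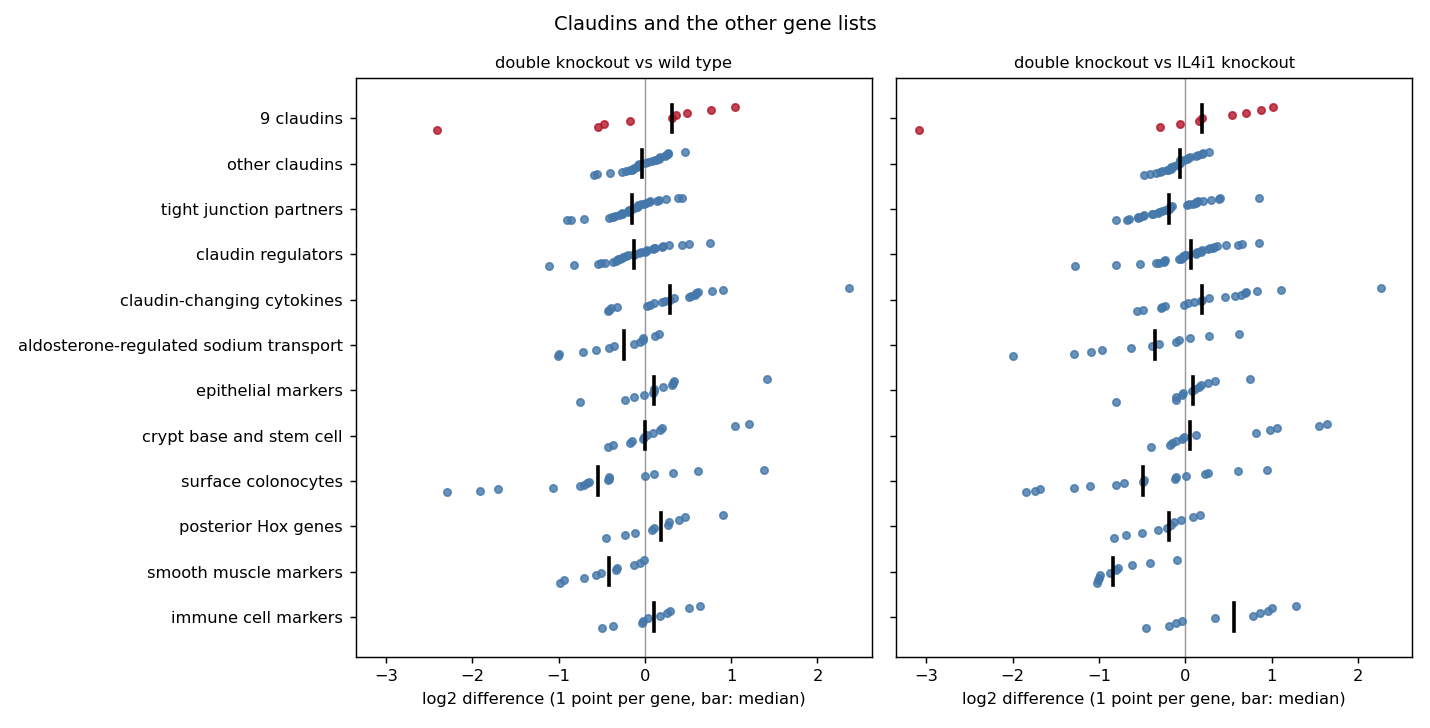
Log2 differences of single genes (points) in the 9 claudins (red) and 11 other gene lists (blue), for the double knockout against wild type (left) and against the IL4i1 knockout (right), with a black bar at the median of each list. The isolated red points are Cldn8, at -2.41 and -3.08, while the claudin medians lie at 0.32 and 0.19; the smooth muscle points all lie below 0 in both panels.

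Position and state of the epithelium were described by 2 more lists. The 16 genes of surface colonocytes had a median of -0.54 in the double knockout against wild type, with 0 adjusted calls. At an unadjusted p under 0.05, which 7.44% of all probes had, 1 was higher and 3 were lower. The brush border genes Mep1a, at -2.29 (adjusted p 0.435), and Ceacam20, at -1.91 (adjusted p 0.368), had double knockout arrays below all wild type arrays, and Guca2b, the uroguanylin gene, was at 1.38 (adjusted p 0.493). Double knockout and wild type arrays did not overlap, in either direction, for 11.6% of all probes. The 12 measured genes of the crypt base and cell cycle had a median of 0.00 and 2 unadjusted calls, beside the same 7.44% of all probes. Both were higher, Pcna at 1.05 (adjusted p 0.368) and Top2a at 1.21 (adjusted p 0.580). The 12 epithelial markers had a median of 0.11, the 10 measured posterior Hox genes 0.19 and the 10 measured immune cell markers 0.11, each with 0 adjusted calls. Over all these lists and comparisons the gene to pass the adjusted test was Lgals4, an epithelial galectin, which rose by 1.58 in the double knockout against the LAO1 knockout (adjusted p 0.0218) and had an adjusted p of 0.0454 for any difference among the genotypes. Of all probes, 0.14% passed the adjusted test in that comparison and 0.207% passed it for any difference. How far a shift between surface and crypt cells bears on the claudin values was not tested.

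The named genes whose values followed each claudin most closely were found by Pearson r over the 12 arrays, as a description. For Cldn8 they were Utp11 (r 0.93) and Ttll6 (r 0.92). Utp11 read 7.23, 7.18 and 7.26 in double knockout arrays, 7.93, 7.99 and 7.85 in LAO1 knockout arrays, 8.42, 8.24 and 8.79 in IL4i1 knockout arrays and 8.69, 8.47 and 7.79 in wild type arrays. Cldn15 was followed by Pofut2 (r 0.95) and Stx17 (r 0.93), and Cldn2 by Rcc1l (r 0.91) and Orc3 (r 0.90). Cldn7 was matched by U2af1 and Armc2 (r 0.95 each), Cldn3 by Dnajc17 (r 0.94) and Clspn (r 0.92), and Cldn4 by Cdk18 (r 0.94) and Polq (r 0.92). Cldn12 was matched by B3gnt3 (r 0.96) and Rad18 (r 0.95), Cldn23 by Nlrc4 (r 0.92) and Mapk8ip1 (r 0.88), and Cldn1 by Slitrk6 (r 0.85) and Pdcd2l (r 0.82). With 19505 named genes to choose among, high values of r arise in any case, and arrays that stand apart feed into several of them.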

How the data were processed

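RNA of mouse colon was measured on 12 Affymetrix arrays, 3 for each of 4 genotypes, and groups and replicate numbers are those of the labels. Per the labels' protocols, 4 mice were picked per genotype, and 6 µg of RNA extracted by ISOGEN II was made into biotin-labelled cRNA. The authors deposited log2 expression values for 22206 probes, between 1.72 and 19.93, with array medians of 5.42 to 5.49. Transcriptome Analysis Console is the tool given in the submitters' processing notes, and the summarisation, normalization and genome build are not given in the sources used here. Values were used as deposited. Arrays have no read depth, and their number limits the precision.

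Genes were named from the platform annotation, 1 probe per gene by highest mean. The test was that of limma 3.58.1 (R 4.3.3; lmFit, eBayes, two-sided, 8 residual degrees of freedom), fitted once to the 12 arrays with 4 genotype means, and p-values were adjusted by Benjamini-Hochberg over all probes of each comparison. The fit was tested on simulated data. Correlations of claudin pairs used 100000 permutations. Alternatives covered normalization, probe filter, array weights, epithelial centring, replicate block, arrays compared and each array left out, plus 1 added after seeing the data (double knockout replicate 1 and IL4i1 knockout replicate 2 both left out). Named genes were all 9 claudins and, of each other list described, every member past the adjusted threshold or else at most 3 with the smallest p. Some lists had no gene named by p. Cldn17, Tjp1, Hsd11b2, Scnn1a, Scnn1b, Scnn1g, Hoxb13, the other Hox genes and the genes marking single arrays were added after their values were seen. The claudins and the lists were chosen with earlier results of these data known. Plots used matplotlib 3.10.9 under Python 3.11.15.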

Additional observations from a re-analysis of the deposited data

How the results depend on the processing

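The Cldn8 call between the double knockout and the IL4i1 knockout kept its direction in all 20 alternatives and passed in 17; it was lost at -2.87 without double knockout replicate 1, at -3.08 with the 6 compared arrays only (adjusted p 0.0941) and at -3.24 with double knockout replicate 1 and IL4i1 knockout replicate 2 both left out. All 3 of these fits hold fewer arrays, as do the other fits with 1 array left out, which kept the call. What lay behind the losses was not tested. Cldn4 in the double knockout against wild type reversed to -0.12 with array weights, to -0.40 with those 2 arrays left out and over -0.40 to 0.82 when 1 array at a time was left out (-0.28 without wild type replicate 3). Cldn2 reversed to -0.03 with both left out, and ranged over -0.03 to 1.63 with 1 array left out. Among the alternative values of single claudins, 388 kept direction and side of the threshold, 3 lost the call and 6 reversed.

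Counts of claudins at an unadjusted p under 0.05 moved with few members. In the double knockout against wild type, 1 became 4 with array weights, 2 with epithelial centring and 2 with compared arrays only, and 1 to 4 with 1 array left out (4 without IL4i1 knockout replicate 2, 3 without double knockout replicate 2). In the LAO1 knockout against wild type, 0 became 1 with array weights, and 0 to 1 with 1 array left out. In the IL4i1 knockout against wild type, 1 became 3 with array weights, 2 with compared arrays only and 3 with both arrays left out, and 1 to 3 with 1 left out. In the double knockout against the LAO1 knockout, 2 became 1 with trend and robust settings, quantile normalization, the filter on dim probes and the replicate block, and 1 to 2 with 1 array left out; against the IL4i1 knockout, 2 became 1 with epithelial centring and 3 with the replicate block, with both arrays left out, without IL4i1 knockout replicate 1 and without double knockout replicate 3. The interaction count of 1 became 2 with array weights or both arrays left out, and 1 to 2 with 1 left out; the count for any difference went over 2 to 3.

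Replicate numbers were not used to pair the samples in the main fit. The deviations of 18 same-numbered pairs correlated at -0.142 to 0.218, and 7 exceeded 0.1. These values alone do not settle whether same-numbered arrays share an effect. With the replicate block, adjusted calls over all probes were 6 and 166 in the double knockout against wild type and against the IL4i1 knockout, beside 5 and 106 without it. Against the IL4i1 knockout the calls over all probes ranged from 25 with both arrays left out to 174 without double knockout replicate 2, with 33 from compared arrays only and 46 without double knockout replicate 1. Each claudin had 1 probe, so another probe could not be tried, and the compared-arrays fit gives no interaction or test across all genotypes.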
